A study of Mus musculus with 28 samples.

Results

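The libraries described here are the 3 heart and the 3 cerebral cortex libraries of newborn control mice, 6 of the 28 libraries in the series, chosen by their labels and not by any measured value. Both groups come from C57BL/6J mice at postnatal day 1 (P1), carry the genotype label Y334C WT, and have no treatment named in the labels. The wider study compared such controls with mice that carry the Y334C change in Sepsecs, the synthase that makes selenocysteine on its transfer RNA, and added control and Sepsecs Y334C, Gpx4 U/C mice at postnatal day 75. The series' design text gives 3 control mice, each library holds 1 tissue, and nothing in the labels ties a heart to the cortex of the same mouse, so p-values measure the spread between these libraries. The libraries were made with QuantSeq, which reads 1 tag near the 3′ end of each polyadenylated transcript, so a count stands for a transcript and is not scaled to its length.

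At birth the heart muscle leaves a fetal program: cardiomyocytes still divide, carry sarcomere proteins that are later replaced, and start to take up fatty acids as milk feeding begins. The sarcomere is the repeating unit of thick myosin and thin actin filaments, anchored at Z-discs, and calcium released from the sarcoplasmic reticulum drives its contraction. The newborn cortex holds young projection neurons in forming layers, inhibitory interneurons that are still arriving, and radial glia that are turning from making neurons to making glia, while mature astrocytes and myelin are still few.

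The 6 libraries held 5779075 to 7137720 counts. Transcripts of the mitochondrial genome took 2.76 to 3.65% of the counts in cortex and 5.75 to 12.8% in heart, the lowest heart share being that of heart control 1. Haemoglobin genes took 0.194 to 0.334% in cortex and 1.83 to 6.87% in heart, highest in heart control 2. By the first passage of the labels' protocols, heart control 3 was extracted with the RNeasy Plus Micro kit and the other 5 libraries with TRIzol, although a second passage names TRIzol for every library. In bulk tissue, more cells of a type and more RNA per cell cannot be told apart.

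Heart controls 1 and 2 held secretory transcripts of airway epithelium that were at or near 0 in heart control 3 and in the cortex libraries. The summed level of 20 lung epithelial genes, in CPM (the count as a share of all counts of its library, on a common scale), was 6231, 2088 and 230.1 in heart controls 1, 2 and 3 and 47.4, 73.5 and 97.4 in the cortex libraries. In heart control 3 most of that sum was Hopx, a homeodomain protein that cardiomyocytes also make, at 217 CPM. Scgb1a1, the club cell secretory protein, had 323, 73.7 and 0 CPM in the hearts and was at 0 in all cortex libraries. Sftpc, the surfactant protein of alveolar cells, had 34.9, 0.346 and 0 CPM in the hearts. Col2a1, the collagen of cartilage, had 64.2, 113 and 2.97 CPM in the hearts and 2.24, 6.76 and 8.34 CPM in the cortices, while the cartilage list as a whole summed to 362, 359 and 143 CPM in the hearts and to more, 394, 482 and 462 CPM, in the cortices. Most of the cortex sums came from the list members Sox9, Sox5 and Sox6. In the cortices Sox9 had 89.1, 185 and 231 CPM, Sox5 had 182, 147 and 90.3 CPM, and Sox6 had 45.1, 57 and 38.4 CPM. In all, 15 genes had both other hearts at least 10 times above heart control 3 (CPM plus 1, scaled as below). Of these, 6 passed the filter on low counts, and each was called higher in heart, among them Hba-a2, Cbr2, Wfdc2, Col2a1 and Sec14l3. Hba-a2 is nearly identical to Hba-a1, so the split of reads between the haemoglobin alpha genes is uncertain. Of these 15 genes, Hba-a2 is counted below in the red cell list and Col2a1 in the cartilage list, and some of the lists are also described from heart control 3 alone. The part of the extraction kit in any difference between heart control 3 and the other hearts was not tested.

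The cortex libraries differed in neighbouring tissue as well. Ttr, the transthyretin that the choroid plexus secretes, had 113, 2017 and 1336 CPM in cortex controls 1, 2 and 3 and 6.39, 2.6 and 1.87 CPM in the hearts. Genes of striatum and hippocampus summed to 607, 1024 and 1047 CPM in the cortices, lowest again in cortex control 1. Pax7, Zic1 and Zic4, members of other neighbouring-tissue lists, were highest in cortex control 3, at 11.5, 281 and 70.2 CPM. They had 0.14, 49.7 and 10.2 CPM in cortex control 1 and 0, 53.1 and 10.3 CPM in cortex control 2. The skeletal muscle list reached 2565, 2365 and 2591 CPM in the hearts, mostly through Ckm, which heart muscle shares, while Myh4, the fast skeletal myosin, had no count in any heart and Myod1, the skeletal muscle regulator, 0.142, 0 and 0 CPM.

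**Figure D1:**
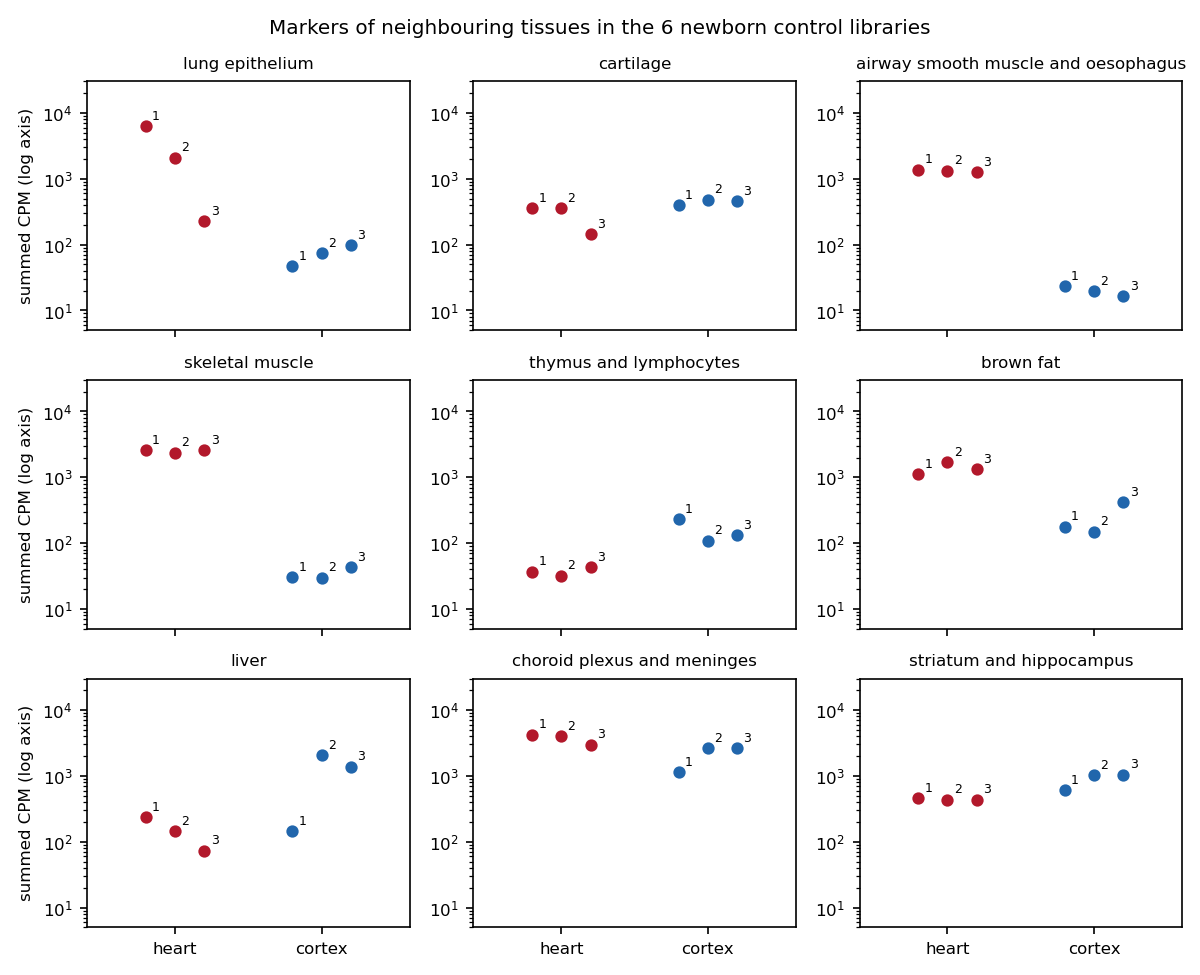
Summed CPM of the library total (log axis) for 9 lists of neighbouring-tissue genes, with 1 point per newborn control library and its replicate number beside it. Lung epithelial genes reach 6231 CPM in heart control 1 and 230.1 CPM in heart control 3, and liver genes, which include Ttr, are lowest among the cortices in cortex control 1.

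Across the whole table, 14020 genes passed the filter on low counts and 8186 (58.4%) differed between heart and cortex by edgeR's quasi-likelihood test (Benjamini-Hochberg adjusted p under 0.05), with 4099 higher in heart (29.2% of genes tested) and 4087 higher in cortex (29.2%). Of these, 2048 were at least 4-fold higher in heart and 2143 at least 4-fold higher in cortex. With so many genes called, a list's count is read below against 29.2% in each direction. The test scales libraries with TMM factors. With library totals alone, which moves the median of all genes by -0.41 on the log2 scale, 36.0% of the calls were higher in heart in place of 50.1%, and none of the 8186 genes was called in the other direction. Heart control 3 lay above all 3 cortex libraries for 4053 of the 4099 genes called higher in heart and below all 3 for 4066 of the 4087 called higher in cortex. Over all 14020 genes tested it lay above for 5912 and below for 6036. This library is part of the fit that made the calls, so its agreement is no separate support for them. All levels given for single genes from here on are TMM-scaled CPM, fold changes are on the log2 scale as heart minus cortex with the standard error, and the p is edgeR's adjusted p.

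Among genes with at least 10 CPM in every heart library, those with the largest differences were mostly muscle proteins. Lmod2, a leiomodin that nucleates and lengthens thin filaments, had 83.3, 426 and 182 CPM in heart controls 1, 2 and 3 and no count in any cortex library. The hearts spread widely, with heart control 2 highest, and all lay far above the cortices, at least 1710.3-fold by a floor of 3 counts over the 3 cortex libraries (adjusted p 7.9e-06). Xirp1, an actin-binding protein of the intercalated disc, had 86.9, 102 and 78.7 CPM in the hearts, at least 662-fold above the same floor. Asb11, a subunit of a ubiquitin ligase, and Yipf7, a Golgi membrane protein, likewise had counts in no cortex library and were at least 538-fold and 516-fold higher. The other 6 of the first 10 were Hspb7, a small heat shock protein of heart muscle, Myoz2, Myl7, Cav3, Mybpc3 and Actc1. Cav3, the muscle caveolin, had 259, 184 and 225 CPM in the hearts and 1 count in the 3 cortex libraries.

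On the cortex side most were receptors, channels and synapse proteins. Kcnq3, a subunit of the potassium channel that carries the M current, had 68.7, 71.9 and 64.5 CPM in cortex controls 1, 2 and 3 and no count in any heart. The cortices lay within a narrow range, at least 379.5-fold above the floor of the hearts. Fezf2, the transcription factor of subcortically projecting neurons, had 58.8, 48.2 and 24.2 CPM, lowest in cortex control 3, and Glra2, a glycine receptor subunit, had 39.8, 42.5 and 48.5 CPM, both with no count in the hearts. Fam19a2, Lrfn5, Grm3, Slitrk1, Syndig1l and Iqsec3 also had no count in any heart, and their lower bounds ran from 137-fold for Iqsec3 to 246-fold for Fam19a2. Gabra5, a GABA receptor subunit, had 127, 91.6 and 90.2 CPM in the cortices and 1 count in the hearts. Ahead of these 10 cortex genes, 2 others ranked high enough but were passed over by the naming rule given with the methods.

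The sarcomere separated the tissues completely. Of 14 thick filament genes 13 could be tested, and all 13 were higher in heart, as were all 26 thin filament and Z-disc genes, with median log2 differences of 9.68 and 9.70 beside 0.0021 for all genes tested. With genes that had no cortex count set at their lower bound, the thin filament median was 9.52. From heart control 3 alone the medians were 9.87 and 9.44. Actc1, the cardiac actin of the thin filament, had 15917, 15126 and 17428 CPM in the hearts and 3.9, 5 and 5.45 CPM in the cortices. The hearts lay close together and far above any cortex, a log2 difference of 11.72 ± 0.31 (adjusted p 6.7e-09). Myl3, an essential myosin light chain, had 21694, 19651 and 21220 CPM in heart and 5.79, 9.12 and 9.18 CPM in cortex. Its difference was 11.34 ± 0.34 (adjusted p 7.2e-09), again with no overlap. Mybpc3, the myosin-binding protein that sets how myosin heads engage, had 4733, 3783 and 4023 CPM in the hearts and 0.755, 1.32 and 1.6 CPM in the cortices, a difference of 11.72 ± 0.36 (adjusted p 7.9e-09).

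Forms that belong to the atrium, the ventricle, the fetus and the adult were all present. Myl7, the atrial regulatory light chain, had 1621, 1668 and 1308 CPM and Myl2, its ventricular counterpart, 5573, 4264 and 5977 CPM in the hearts, against at most 2.14 CPM of either in a cortex. Both troponin I genes were high: Tnni3, the cardiac form, with 3619, 3044 and 3104 CPM, and Tnni1, the slow skeletal form that the fetal heart uses, with 2691, 2424 and 3267 CPM. Myh6, the faster cardiac myosin heavy chain, had 6396, 3772 and 3209.6 CPM, highest in heart control 1. Myh7, the slower form of the fetal ventricle, had 1015, 3240.4 and 2619.9 CPM, lowest in heart control 1. All hearts lay above all cortices (log2 differences 11.20 ± 0.62 and 9.68 ± 0.55). The smallest difference in the thin filament list was that of Acta1, the skeletal actin, with 220.1, 145 and 172 CPM in heart and 15.6, 11.5 and 13.2 CPM in cortex (3.73 ± 0.26). Acta1 was chosen for mention after its values were seen.

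Since these genes move together, their promoters were searched for sites of the factors that drive muscle genes, using RefSeq sequence of build GRCm38.p6, in the 250 bases before 1 start site per gene. The sites were the CArG box, which binds serum response factor, the MEF2 site, which binds the MEF2 proteins, and the letters AGATAA, bound by GATA factors, each read on both strands, and none of the matches printed below overlaps a match of another of the 3. Promoters were found for 35 of the 40 sarcomere genes and for 27025 genes in all. A CArG box lay in 7 of the 35 (20%) and in 1.4% of all promoters. A MEF2 site lay in 5 (14.3%) against 0.518%, and AGATAA in 10 (28.6%) against 10.3%. Among promoters of genes tested here, the shares were 1.14%, 0.533% and 5.41%. The genes with a CArG box were Acta1, Actc1, Fhl2, Ldb3, Myl3, Myl7 and Myom1, those with a MEF2 site were Mybpc3, Myoz2, Synpo2l, Ttn and Xirp2, and no sarcomere gene held both. The 15 pan-neuronal genes with a promoter held neither, and 2 of them (13.3%) held AGATAA. Of 22 vesicle and release genes with a promoter, 1 held a CArG box (4.55%), none a MEF2 site and 3 AGATAA (13.6%). The median number of CpG pairs in the window was 4 in sarcomere genes, 14 in pan-neuronal genes and 16 in all tested genes with a promoter. These matches are a description of the sequence and were not tested. The windows of 100 bases below, read 5′ to 3′ on the gene's strand, show the site in capitals for 3 genes with a CArG box and 2 with a MEF2 site. They lie, in GRCm38.p6, at chr2:114052876-114052975 (minus strand) for Actc1, chr11:5898789-5898888 (minus strand) for Myl7, chr9:110763548-110763647 (plus strand) for Myl3, chr2:91118009-91118108 (plus strand) for Mybpc3 and chr3:123034988-123035087 (minus strand) for Myoz2, with the site's first base 47, 61, 85, 90 and 33 bases before the start site.
Actc1: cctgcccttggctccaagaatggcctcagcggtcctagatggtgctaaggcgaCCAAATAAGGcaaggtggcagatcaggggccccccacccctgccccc
Myl7: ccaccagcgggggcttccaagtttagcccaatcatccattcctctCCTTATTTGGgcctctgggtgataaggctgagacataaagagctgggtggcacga
Myl3: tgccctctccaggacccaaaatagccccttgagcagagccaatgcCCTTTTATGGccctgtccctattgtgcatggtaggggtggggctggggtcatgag
Mybpc3: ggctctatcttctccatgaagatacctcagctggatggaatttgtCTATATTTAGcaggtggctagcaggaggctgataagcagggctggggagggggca
Myoz2: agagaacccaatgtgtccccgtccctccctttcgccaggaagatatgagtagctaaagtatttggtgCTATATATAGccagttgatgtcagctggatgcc

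Of 19 genes of calcium handling, 17 were higher in heart and 2 in cortex. Pln, which restrains the calcium pump of the sarcoplasmic reticulum, had 2642, 3911 and 3576 CPM in the hearts and 1.51, 0.882 and 2.13 CPM in the cortices, with no overlap (11.10 ± 0.39, adjusted p 1.2e-08). Casq2, the cardiac calcium store protein, differed by 10.57 ± 0.41, and Sln, a second pump regulator, by 9.26 ± 0.51. Ryr2, the calcium release channel, and Atp2a2, the pump itself, were expressed in both tissues, at 579, 616 and 558 and 2486, 2444 and 2639 CPM in the hearts and 27.9, 15.6 and 24.6 and 209, 151 and 198 CPM in the cortices. The pair of exceptions was Fkbp1b, a ryanodine receptor partner, with 4.1, 4.26 and 3.92 CPM in heart and 53.9, 29.7 and 33.8 CPM in cortex (-3.25 ± 0.32), and Cacna2d1, an auxiliary calcium channel subunit (-0.92 ± 0.29, adjusted p 0.019). The call of Cacna2d1 was lost without cortex control 1 or cortex control 3.

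Cardiac ion channel genes were split, with 16 of 24 higher in heart and 5 higher in cortex. Kcne1, the accessory subunit of the slow repolarising potassium current, had 279.7, 172 and 206 CPM in the hearts and 2 counts in the 3 cortex libraries. Popdc2 and Bves, cAMP-binding membrane proteins of muscle, and Kcnq1, the pore subunit that Kcne1 joins, differed by 10.32 ± 0.36, 8.29 ± 0.51 and 6.28 ± 0.35. Those on the cortex side included channels known from the heartbeat. Hcn4, a pacemaker channel, had 14.7, 9.16 and 13.4 CPM in whole hearts and 30.2, 32.5 and 31.4 CPM in cortex, so no heart reached the lowest cortex (-1.33 ± 0.26). Kcnd2 and Kcnd3, subunits of the transient outward potassium current, differed by -4.36 ± 0.42 and -3.16 ± 0.49, and Cacna1d, an L-type calcium channel, by -1.89 ± 0.28.

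Transcription factors of heart development were mostly higher in heart, 19 of 23, with 2 higher in cortex. From heart control 3 alone, 15 of 23 were called higher in heart. Nkx2-5, a homeodomain factor of the early heart, had 93.1, 72.8 and 108 CPM in the hearts and 1 count in the cortex libraries together, a ratio of 2049.9 (95% exact interval 367 to 81018). Gata4, a zinc finger factor that acts with it, had 131, 63.2 and 87.7 CPM, also against 1 count, a ratio of 2184 (95% exact interval 391 to 86300). Hand2 and Tbx5, factors of the right ventricle and of the left heart and atria, had 134, 173 and 109 and 179, 223 and 90.1 CPM, against 2 and 3 counts in cortex. Mef2c, a factor that both cardiomyocytes and cortical neurons use, ran the other way, with 78.9, 118 and 165 CPM in heart and 1892, 728 and 468 CPM in cortex (-3.09 ± 0.49, adjusted p 0.00024). Its cortex level was highest in cortex control 1, and every cortex lay above every heart. Isl1, a factor of cardiac progenitors and of striatal neurons, had 1.52, 0.639 and 0.559 CPM in heart and 2.14, 12.2 and 11.6 CPM in cortex (-3.18 ± 0.71), and cortex controls 2 and 3, which also had more transcripts of the striatal list, were the high ones. The part of striatal tissue in that value was not tested.

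Of secreted heart factors, 8 of 11 were higher in heart and 3 in cortex. Nppa, the atrial natriuretic peptide, had 3909.5, 7886 and 3928 CPM in the hearts, highest in heart control 2 and nearly equal in the others, and 2.39, 2.06 and 3.72 CPM in the cortices (10.90 ± 0.47). Nppb, the peptide of the stretched ventricle, had 41, 268 and 47.4 CPM, again highest in heart control 2, and 2 counts in the cortices. Corin, the protease that activates both peptides, had 50.7, 68.8 and 57.4 CPM in the hearts. Nrg1, Fgf13 and Fgf12 were the members higher in cortex. Atrial markers were higher in heart for 11 of 15 and ventricular markers for 10 of 12. The atrial list's members on the cortex side were Nr2f1 and Nr2f2, nuclear receptors that also pattern the cortex (-4.15 ± 0.36 and -0.97 ± 0.37), and the call of Nr2f2 was lost when any of 5 of the 6 libraries was left out. Against cortex control 1 alone its difference was 0.20.

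**Figure D2:**
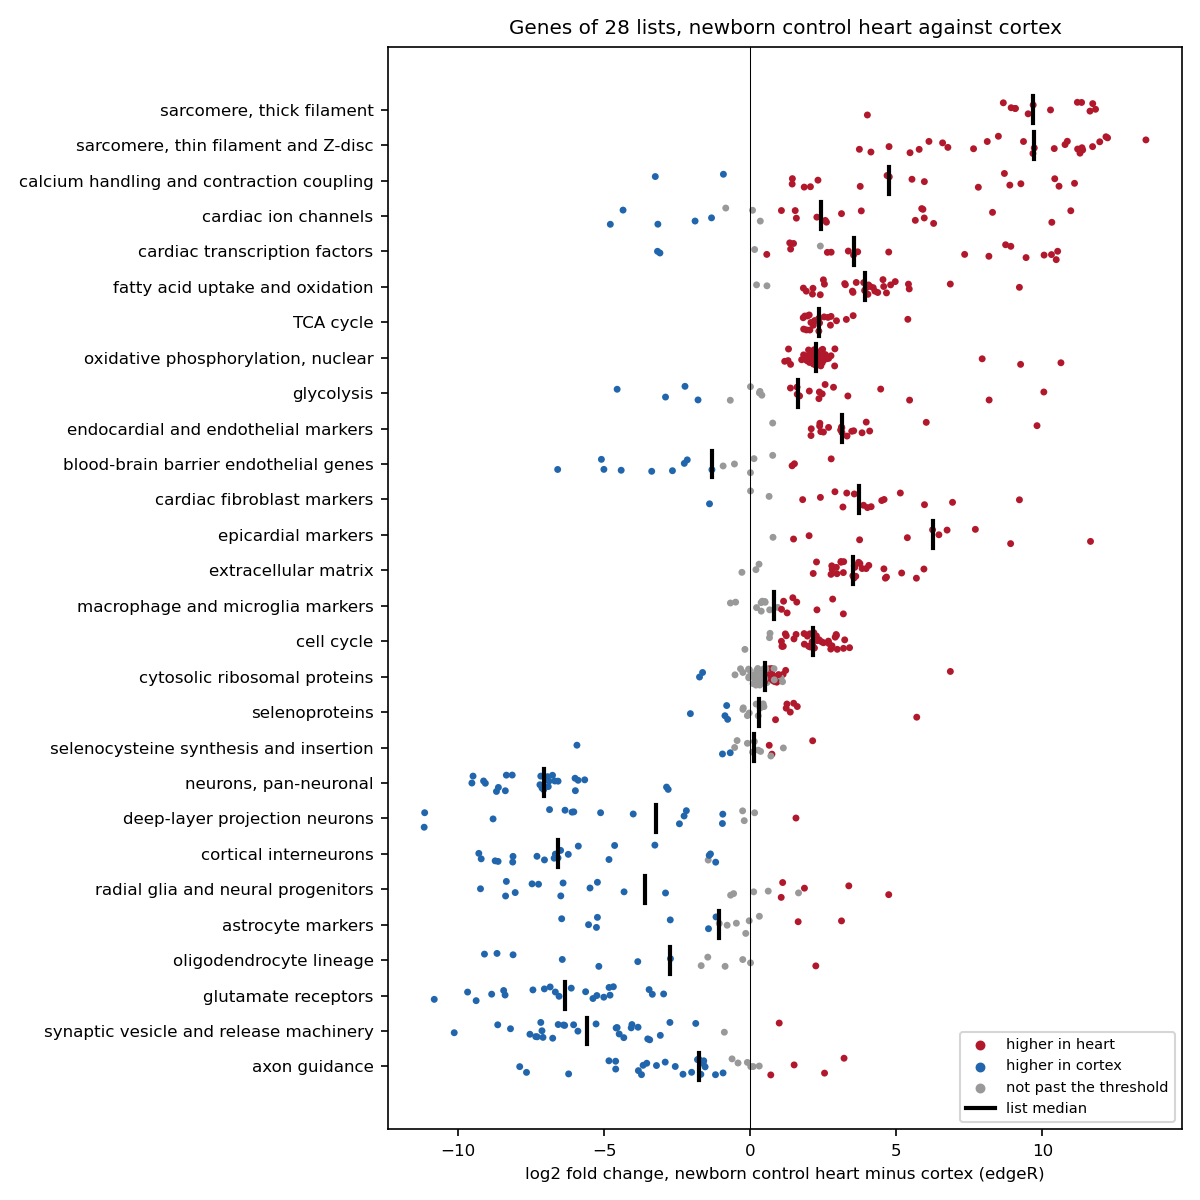
log2 fold change (heart minus cortex) of every tested gene in 28 lists, with 1 point per gene, red where higher in heart, blue where higher in cortex, grey where not past the threshold, and a black bar at the list median. Sarcomere genes lie at a median of 9.68 and 9.70, pan-neuronal genes at -7.08, and selenoproteins and ribosomal proteins near 0.

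Energy genes differed as whole pathways. Of 32 tested genes of fatty acid uptake and oxidation, 30 were higher in heart and none in cortex (median 3.94, and 3.51 from heart control 3 alone). Cd36, the fatty acid transporter of the cell surface, had 187, 325 and 164 CPM in the hearts and 0.126, 0.441 and 0.532 CPM in the cortices (9.21 ± 0.47, adjusted p 6.6e-08). Acadl, the long-chain dehydrogenase of the first step of beta oxidation, differed by 5.41 ± 0.33, and Pdk4, the kinase that holds pyruvate back from the mitochondrion, by 6.85 ± 0.66. Pdk4 was lowest in heart control 3, at 10.4 CPM. All 21 tested genes of the citric acid cycle were higher in heart. Idh2, the mitochondrial isocitrate dehydrogenase that makes NADPH, stood out with 1579.8, 2029 and 1955 CPM against 33.6, 42.2 and 56.5 CPM (5.39 ± 0.28), while the list's median was 2.34. All 56 tested nuclear genes of oxidative phosphorylation were higher in heart, at a median of 2.26, and of 2.36 from heart control 3 alone. Of 13 mRNAs of the mitochondrial genome, 5 had no count in any of the 6 libraries and 7 could be tested. Of these 7, 6 were higher in heart, led by mt-Nd1 (2.57 ± 0.39), which was lowest in heart control 1 as was the mitochondrial share of that library. In the Sepsecs Y334C newborn libraries the fatty acid, citric acid cycle and oxidative phosphorylation lists gave the same counts, and the mitochondrial genome 7 of 7.

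Ketone body genes did not move together. Slc16a1, a transporter of lactate and ketone bodies, was higher in heart (2.77 ± 0.24), whereas Bdh1, the mitochondrial enzyme that interconverts the ketone bodies, was higher in cortex. Bdh1 had 5.76, 4.68 and 16 CPM in the hearts and 137, 129 and 133 CPM in the cortices, a difference of -3.91 ± 0.41 (adjusted p 1.2e-05) with heart control 3 the highest heart. Slc16a7, a second such transporter, was also higher in cortex (-2.40 ± 0.37). Glycolysis was mixed, with 15 of 24 higher in heart and 4 in cortex. Pgam2, the muscle phosphoglycerate mutase, and Hk2, the insulin-responsive hexokinase, were higher in heart (10.05 ± 0.44 and 4.46 ± 0.30). Eno2, Aldoc, Slc2a3 and Pfkfb3 were higher in cortex. Gapdh, which has many processed copies in the genome, had only 5.01, 2.77 and 4.1 CPM in the hearts, and its level is uncertain.

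Paired forms of the same protein showed where the tissues use different genes for the same step. Of 40 pairs of a muscle form and another form, 38 had both members tested. In 15 pairs the muscle form was higher in heart and the other form higher in cortex, in 16 both were higher in heart, and in 2 both were higher in cortex. The 16 include pairs whose other form is itself a muscle gene, such as Tnni3 and Tnni1, Myl2 and Myl7, and Myh6 and Myh7. Eno3 and Eno2, the muscle and neuronal enolases, differed by 8.18 ± 0.32 and -4.56 ± 0.34. Eno3 had 998, 975 and 999 CPM in the hearts and 4.4, 3.68 and 2.13 CPM in the cortices, and Eno2 had 1.97, 3.19 and 1.68 and 44.7, 48.4 and 67.3 CPM, so each was low in the other tissue. Ckm, the muscle creatine kinase, differed by 11.36 ± 0.41, and Ckb, the brain form, by -0.91 ± 0.28 (adjusted p 0.016), a call lost without cortex control 3 or heart control 2. Ckb had 186, 224 and 381 CPM in the hearts, so both forms were present there. Glucose transporters Slc2a4, the insulin-responsive form, and Slc2a3, the neuronal form, differed by 5.45 ± 0.35 and -2.24 ± 0.36. The gap junction genes Gja1 and Gjd2 stood at 551, 597 and 399 CPM of Gja1 in the hearts and 13.7, 16.2 and 52.7 CPM of Gjd2 in the cortices. Fatty acid binding proteins Fabp3, of muscle, and Fabp7, of radial glia, differed by 4.96 ± 0.35 and -7.25 ± 0.57.

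In other pairs both forms lay on 1 side. Heart-type subunits of cytochrome c oxidase were higher in heart together with the common ones. Cox6a2, Cox7a1 and Cox8b differed by 9.25 ± 0.38, 7.94 ± 0.36 and 10.63 ± 0.44, and Cox6a1, Cox7a2 and Cox8a, the forms of other tissues, by 1.29 ± 0.21, 1.99 ± 0.24 and 1.76 ± 0.23. Lactate dehydrogenases Ldha and Ldhb were both higher in heart (2.46 ± 0.26 and 2.85 ± 0.23). The calcineurin subunits Ppp3cb and Ppp3ca were both higher in cortex (-1.87 ± 0.20 and -1.92 ± 0.28). Camk2a, the neuronal calmodulin kinase, did not pass the threshold (-0.15 ± 0.37, adjusted p 0.74), with 129, 35.3 and 78.9 CPM in the hearts and 76.3, 99.4 and 95.9 CPM in the cortices, where the groups overlapped.

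**Figure D3:**
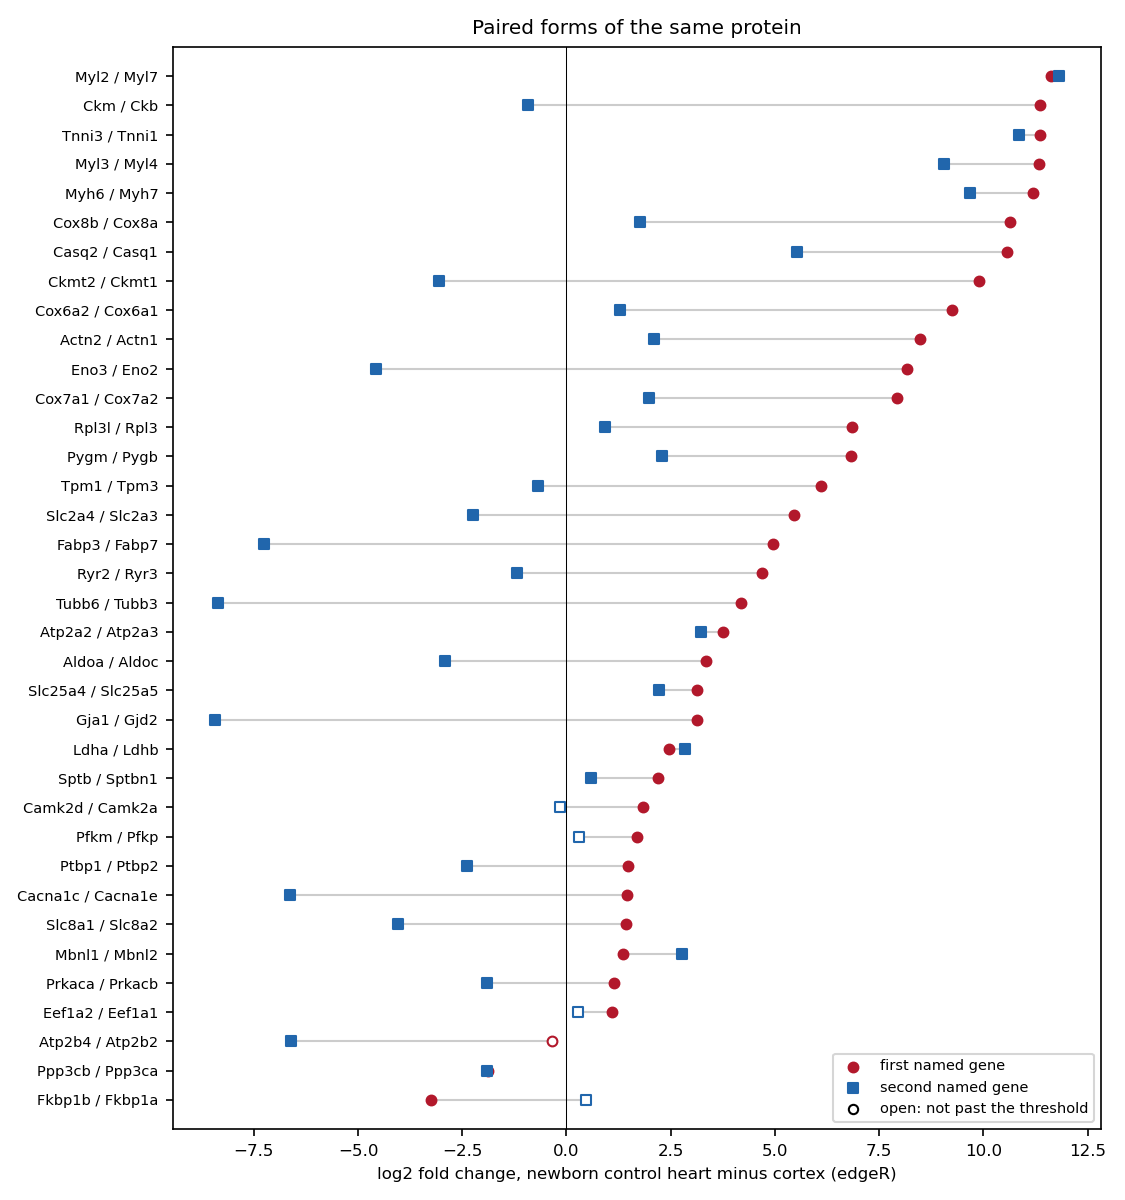
log2 fold change (heart minus cortex) of both genes in 36 of the 38 tested pairs, circles for the gene named first on the vertical axis and squares for the gene named second, open where not past the threshold. Forms such as Eno3 (8.18) and Eno2 (-4.56) lie on opposite sides of 0, and pairs such as Tnni3 and Tnni1 lie wholly on the heart side.

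Markers of the other cells of the heart were higher there too. Of 20 endothelial and endocardial markers, 19 were higher in heart and none in cortex (median 3.13, and 2.99 from heart control 3 alone). Fabp4, the fatty acid binding protein of capillary endothelium, had 537, 1155 and 915 CPM in the hearts and 1.01, 1.18 and 0.665 CPM in the cortices (9.82 ± 0.43, adjusted p 2.5e-08). Pecam1, an adhesion molecule of all endothelium, differed by 3.97 ± 0.33. Sox18, an endothelial factor, was 31.6, 22.8 and 2.24 CPM in the hearts, lowest in heart control 3, and its call was lost with heart control 3 as the sole heart. Genes of the blood-brain barrier went the other way for 9 of 17, with 3 higher in heart. Slco1c1, the thyroid hormone transporter of brain endothelium, and Mfsd2a, the lipid transporter that keeps the barrier closed, had 20.4, 23.4 and 19.7 and 23.2, 18.8 and 16.6 CPM in the cortices and at most 1.21 CPM in a heart. Slc16a1, Itm2a and Abcg2 were the members of that list higher in heart, and the call of Abcg2 was lost without cortex control 2, cortex control 3 or heart control 2.

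Fibroblast markers were higher in heart for 15 of 18, epicardial markers for 10 of 11, and smooth muscle and pericyte markers for 13 of 15. The medians of these lists were 3.72, 6.24 and 2.72, and from heart control 3 alone lower, at 3.31, 5.08 and 2.21. Dpt, a dermatopontin of the fibroblast matrix, had 189, 215 and 186 CPM in the hearts and 0.629, 0 and 0.266 CPM in the cortices (9.21 ± 0.46). Tcf21, the fibroblast lineage factor, had 18.7, 18.5 and 18.5 CPM, nearly the same in each heart, and 3 counts in the cortices. Thy1, a surface protein that neurons also carry, was the fibroblast list's member higher in cortex. Upk3b, a uroplakin of the epicardial mesothelium, had 86.6, 43.4 and 55 CPM in the hearts and no count in the cortices, at least 458-fold. Muc16, a mesothelial mucin, had 15.5, 9.58 and 2.61 CPM and also no count in cortex. Acta2, the smooth muscle actin that fetal cardiomyocytes also use, had 1199, 1107 and 1266 CPM against 7.43, 3.38 and 4.92 CPM (7.81 ± 0.34). Vtn, a pericyte gene of the brain, was higher in cortex (-4.27 ± 0.44).

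Matrix genes were higher in heart for 27 of 30, and none was higher in cortex. The list's median was 3.53, and 3.27 from heart control 3 alone. Eln, the elastin of great vessels, had 1515, 3191 and 629 CPM in the hearts and 47.3, 17.5 and 38.6 CPM in the cortices (5.69 ± 0.61), lowest in heart control 3 among hearts. Col14a1, a fibril-associated collagen, differed by 5.94 ± 0.35. Red cell genes were higher in heart for 7 of 10, among them Hbb-bs with 10568, 42660 and 13003 CPM, highest in heart control 2. Of macrophage and microglia genes, 8 of 18 were higher in heart beside the background of 29.2%, and 4 of 20 from heart control 3 alone. The leading member was Sparc, a matrix protein that fibroblasts make as well, and the next was Lyve1, of resident macrophages and lymphatic vessels (2.82 ± 0.55).

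Cell cycle genes were higher in heart for 34 of 38 and higher in cortex for none, at a median of 2.13. Ube2c, which marks mitotic cyclins for destruction, had 56.3, 96.2 and 155 CPM in the hearts and 6.92, 11.5 and 10.8 CPM in the cortices (3.40 ± 0.39, adjusted p 2.1e-05). Ccnb2, a mitotic cyclin, had 18.5, 40.03 and 69.8 CPM against 5.03, 4.41 and 4.12 CPM (3.23 ± 0.45). In both genes heart control 3, the library labelled with the RNeasy kit, was highest and heart control 1 lowest. From heart control 3 alone the list's median was 2.74. With library totals alone 31 genes were called, and with cortex control 1 as the sole cortex library 26. Of ribosomal protein genes, 23 of 70 were higher in heart (32.9%), near the background of 29.2%. Only 2 were higher in cortex (2.86%), far below the background in that direction. With library totals alone only 1 was called higher in heart, and against cortex control 1 alone 1. Rpl3l, the muscle form of ribosomal protein L3, had 8.8, 9.8 and 3.54 CPM in the hearts and 1 count in the cortices. Many ribosomal genes have processed copies, so the split of their reads is uncertain.

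On the cortex side, all 27 tested pan-neuronal genes were higher in cortex, at a median of -7.08, and from heart control 3 alone at -7.01. Dcx, the microtubule protein of migrating neurons, had 1968, 2014 and 1435 CPM in cortex controls 1, 2 and 3 and 2.43, 3.83 and 1.31 CPM in the hearts. Every cortex lay far above every heart, a difference of -9.49 ± 0.40 (adjusted p 2.5e-08). Ina, a neurofilament subunit of young axons, differed by -9.53 ± 0.47, with its lowest cortex level in cortex control 1. Mapt, the tau protein, had 3945, 3411 and 3060.5 CPM against 7.58, 9.16 and 2.61 CPM (-9.07 ± 0.46). Elavl3, a neuronal RNA-binding protein, had 1298, 1487 and 1233 CPM against 1.82, 2.77 and 2.61 CPM (-9.13 ± 0.30).

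Layer genes were higher in cortex for 11 of 14 upper-layer and 14 of 18 deep-layer members. Pou3f2, an upper-layer factor, had 178, 106 and 90.3 CPM in the cortices and 0.152, 0.639 and 0 CPM in the hearts (-8.90 ± 0.57). Tbr1, the factor of layer 6 neurons, had 301, 247 and 128 CPM, lowest in cortex control 3 (-8.81 ± 0.48). Plxnd1, a semaphorin receptor that endothelium also carries, and Diaph3, a formin used in cell division, were the layer genes higher in heart (1.50 ± 0.30 and 1.56 ± 0.41). Interneuron genes were higher in cortex for 20 of 21. Dlx1, a factor of migrating interneurons, had 161, 170.2 and 155 CPM in the cortices, and Gad1, the enzyme that makes GABA, had 33, 66.5 and 121 CPM, lowest in cortex control 1 and highest in cortex control 3. Sp9, another interneuron factor, had 5.66, 17.5 and 13.2 CPM and no count in the hearts. Cortex controls 2 and 3 held more transcripts of the striatal list, and their part in the interneuron values was not tested.

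Progenitor lists were divided. Intermediate progenitor and newborn neuron genes were higher in cortex for 10 of 13, led by Neurod2 and Neurod6, factors of young excitatory neurons (-9.84 ± 0.53 and -9.79 ± 0.63). Radial glia genes were higher in cortex for 12 of 22 and higher in heart for 5. Emx1, a factor of the dorsal forebrain, had 35.9, 28.2 and 14.6 CPM in the cortices and 1 count in the hearts. Hopx and Vim, which heart muscle and mesenchyme also make, were higher in heart (4.74 ± 0.37 and 3.37 ± 0.29), as were Hes1, Notch1 and Mfge8. Cajal-Retzius genes were higher in cortex for 7 of 9, among them Reln, the secreted guide of layering, with 162, 189 and 128 CPM against 4.25, 7.03 and 5.59 CPM.

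Fewer members of the glial lists were called. Astrocyte markers were higher in cortex for 7 of 15 and higher in heart for 2. Slc1a2 and Slc1a3, the glutamate transporters of astroglia, differed by -5.54 ± 0.40 and -5.23 ± 0.34. Gfap, the filament protein of mature astrocytes, had 7.17, 5.44 and 9.84 CPM in the cortices, and Gja1 and Clu, which heart cells also make, were higher in heart. Oligodendrocyte lineage genes were higher in cortex for 7 of 13. Olig2 and Olig1, factors of the lineage, were among them, with 23.9, 22.5 and 50.1 CPM of Olig2 in the cortices and 1 count in the hearts. Cspg4, which pericytes share with oligodendrocyte precursors, was higher in heart (2.24 ± 0.27).

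Synaptic genes were mostly on the cortex side. All 22 tested glutamate receptor genes and all 15 tested GABA and glycine receptor genes were higher in cortex, with medians of -6.34 and -6.40. Setting genes without a heart count at their bound made these -5.88 and -6.40. Grin2b, the NMDA receptor subunit of the young brain, had 428, 464 and 392 CPM in the cortices and 0.607, 0.639 and 1.49 CPM in the hearts (-8.86 ± 0.34, adjusted p 2.1e-08). Grm3 and Grm2, metabotropic receptors, had no count in any heart. Vesicle and release genes were higher in cortex for 28 of 30, led by Slc17a6, a vesicular glutamate transporter, with 40.02, 57.1 and 170.0 CPM, highest in cortex control 3. Pax7, Zic1 and Zic4 were also highest in that library, and the part of neighbouring tissue in the Slc17a6 value was not tested. Syngr1, a vesicle protein found beyond neurons, was higher in heart (0.99 ± 0.22). Postsynaptic scaffold genes were higher in cortex for 20 of 26, and Dlg1 and Homer3, whose proteins also occur in muscle, were higher in heart by 0.78 ± 0.25 and 0.69 ± 0.26. Both calls were lost with library totals alone, and without several single libraries.

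Neuronal channel genes were higher in cortex for 22 of 24. Scn2a, the sodium channel of young axons, had 103, 80 and 141 CPM against 0.607, 0.852 and 0.186 CPM (-7.59 ± 0.43). Axon guidance genes were higher in cortex for 23 of 33 and higher in heart for 4. Unc5d, a netrin receptor of migrating upper-layer neurons, had 29.8, 33.2 and 36.4 CPM in the cortices and 2 counts in the hearts, and Epha5, an ephrin receptor, differed by -7.66 ± 0.44. The ligands Ntn1 and Slit3 were higher in heart (3.21 ± 0.62 and 2.54 ± 0.67), as were the semaphorin receptors Plxnd1 and Nrp1. The calls of Ntn1 and Slit3 were lost with heart control 3 as the sole heart, and that of Nrp1 without any of 5 of the 6 libraries, while the netrin receptor Dcc was higher in cortex (-6.22 ± 0.45).

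Of regulators of alternative splicing, 18 of 27 were higher in cortex (66.7%), above the background of 29.2%. The 7 higher in heart (25.9%) were no more than the background of 29.2% in that direction. Rbm20, which controls the splicing of titin, had 120.3, 183 and 110.0 CPM in the hearts and 0.881, 2.79 and 1.46 CPM in the cortices (6.34 ± 0.41, adjusted p 3.1e-07). Rbm24, a regulator of muscle exons, differed by 3.65 ± 0.37, with 393, 702 and 575 CPM in the hearts. Celf3, a CELF protein of neurons, had 301, 368 and 318 CPM in the cortices against 1.06, 0.852 and 0.373 CPM, and its relative Celf5 had 3 counts in the hearts. Rbfox3, the neuronal NeuN antigen, differed by -6.92 ± 0.38. Ptbp1 and Ptbp2, which replace each other as neurons form, differed in opposite directions (1.48 ± 0.27 and -2.39 ± 0.35).

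Sepsecs itself did not pass the threshold between the tissues. It had 11.1, 15.1 and 11.4 CPM in the hearts and 8.68, 11.6 and 10.8 CPM in the cortices, where the ranges overlapped (0.27 ± 0.31, 95% interval -0.41 to 0.95, adjusted p 0.47). Selenoproteins, the proteins that contain selenocysteine, were divided, with 7 of 20 higher in heart and 4 in cortex, both near the background of 29.2%. Gpx3, the glutathione peroxidase of the extracellular space, had 543, 599.6 and 305 CPM in the hearts and 8.68, 4.41 and 14.6 CPM in the cortices, the largest difference of the list (5.70 ± 0.45, adjusted p 1.3e-06). Gpx4, the peroxidase that reduces lipid peroxides in membranes, had 18.7, 16 and 22 CPM in the hearts and 7.93, 8.09 and 7.71 CPM in the cortices. Its hearts all lay above its cortices (1.25 ± 0.29, adjusted p 0.0031). Gpx1, the cytosolic peroxidase, differed by 1.61 ± 0.24, Txnrd2, the mitochondrial thioredoxin reductase, by 1.37 ± 0.30, Selenon, a protein of the sarcoplasmic reticulum, by 1.48 ± 0.27, and Msrb1, a methionine sulfoxide reductase, by 1.23 ± 0.21. Selenop, the plasma carrier of selenium, was at the edge of the threshold (0.86 ± 0.34, adjusted p 0.049), with cortex control 1 above heart control 1, and its call was lost in several of the other settings tried.

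On the cortex side, Dio2, the enzyme that activates thyroid hormone, had 48.1, 15.6 and 21.8 CPM against 7.74, 7.24 and 5.59 CPM (-2.05 ± 0.42), highest in cortex control 1. Selenoi, a phospholipid synthase, Txnrd1, the cytosolic thioredoxin reductase, and Selenow differed by -0.87 ± 0.27, -0.81 ± 0.31 and -0.78 ± 0.24. Each of these 3 calls was lost when a single library was left out: Selenoi without cortex control 3 or heart control 3, Selenow without cortex control 2, heart control 2 or heart control 3, and Txnrd1 without any of 5 of the 6. In the list of genes that make and insert selenocysteine, which also holds the uptake receptor Lrp8, 3 of 15 were higher in heart. Another 3, Lrp8 among them, were higher in cortex. Pstk, the kinase that acts on the transfer RNA just before Sepsecs, had 27.5, 23.4 and 34.5 CPM in the hearts and 6.17, 6.32 and 6.92 CPM in the cortices, with no overlap (2.13 ± 0.28, adjusted p 6.3e-05). Secisbp2, the protein that binds the insertion element, and Trnau1ap, a partner of the transfer RNA, were higher in heart by 0.74 ± 0.26 and 0.65 ± 0.22, but both calls were lost with library totals alone and without any of several single libraries. Secisbp2l, a relative of Secisbp2, and Sars, which loads serine on the transfer RNA, were higher in cortex by 0.95 and 0.69. Lrp8, the receptor through which brain takes up Selenop, had 222, 224 and 171 CPM in the cortices and 1.67, 4.9 and 3.73 CPM in the hearts, the largest difference of the list (-5.94 ± 0.36, adjusted p 1.9e-07). With library totals alone the list gave 1 gene higher in heart and 5 in cortex, and with heart control 3 as the sole heart 1 and 2.

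**Figure D4:**
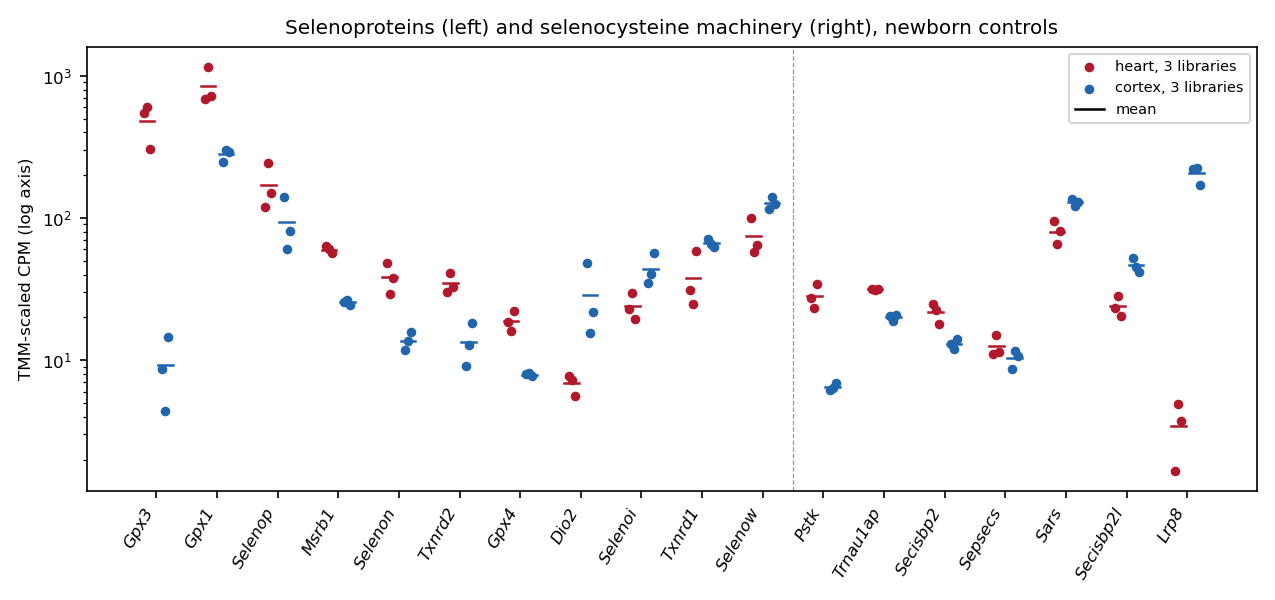
TMM-scaled CPM (log axis) in each of the 3 heart (red) and 3 cortex (blue) libraries, with short lines at the group means. Left of the dashed line are 11 selenoproteins past the threshold. Right of it are 7 genes of the selenocysteine synthesis and insertion list, which also holds the uptake receptor Lrp8. Gpx3 lies between 305 and 599.6 CPM in heart, Lrp8 between 171 and 224 CPM in cortex, and the Sepsecs groups overlap.

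Genes of glutathione and ferroptosis defence were higher in heart for 21 of 35 and higher in cortex for 5. Sod2, the mitochondrial superoxide dismutase, had 535, 514 and 575 CPM in the hearts and 55.1, 57.6 and 70.4 CPM in the cortices (3.15 ± 0.21, adjusted p 3.3e-07). Nfe2l2, the NRF2 factor of the oxidant response, and Aifm2, a reductase that regenerates coenzyme Q at membranes, differed by 2.77 ± 0.36 and 2.68 ± 0.40. The cystine importer ran the other way. Slc7a11, its transport subunit, had 0.152, 0.426 and 1.12 CPM in the hearts and 34.4, 14.1 and 20.6 CPM in the cortices (-5.35 ± 0.60, adjusted p 2e-05), and Slc3a2, its chaperone, differed by -1.03 ± 0.27. Ggt7, Chac1 and Acsl3 were the other members higher in cortex, and the call of Acsl3 was lost without cortex control 3, heart control 1 or heart control 2.

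Of imprinted growth genes 9 of 17 were higher in heart and 5 in cortex. H19, an untranslated growth-restraining RNA, had 5574, 5476 and 5996 CPM in the hearts and 141, 143 and 153 CPM in the cortices, each group within a narrow range (5.29 ± 0.22, adjusted p 2.4e-08). Mest, Dlk1 and Igf2r, further fetal growth genes, differed by 4.34 ± 0.48, 4.20 ± 0.30 and 4.17 ± 0.22. Nnat, a small membrane protein of brain, had 1635, 3016 and 3034 CPM in the cortices against 23.8, 20.02 and 15.9 CPM (-7.00 ± 0.35), and Snrpn, Ndn, Meg3 and Rian were also higher in cortex. Among immediate early genes 13 of 20 were higher in heart, including Klf2 and Zfp36, of the endothelial flow response and of mRNA decay (3.31 ± 0.34 and 3.21 ± 0.39). Nr4a2 and Nr4a3, nuclear receptors that deep cortical neurons also carry, were higher in cortex (-3.66 ± 0.47 and -2.78 ± 0.44).

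The 3 heart and 3 cortex libraries of Sepsecs Y334C newborns gave a separate measurement of the same tissue difference. Of the 4011 genes called higher in control heart that were tested there, 3780 (94.2%) were called higher in heart again, beside 31.9% of all genes tested in those libraries. Of 4005 called higher in cortex, 3798 (94.8%) were called so again, beside 33.2%. By the first label passage all 3 of those hearts were of the RNeasy kit and all 3 of those cortices of TRIzol. Kit and tissue therefore cannot be told apart in these libraries. The lung list of those hearts summed to 261, 904 and 283 CPM. Both sarcomere lists together kept 39 of 39 on the heart side, pan-neuronal genes 27 of 27 on the cortex side, and cell cycle genes 32 of 38 on the heart side. Cartilage genes gave 0 of 10 higher in heart, where the control comparison had given 5 of 12, Col2a1 among them, and 0 of 12 with heart control 3 as the sole heart, a fit with fewer libraries.

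The newborn difference was set beside that of the 3 control hearts and 3 control cortices at P75, labelled Gpx4 WT and extracted with TRIzol. In a fit of all 12 control libraries, the tissue difference changed with age for 1586 of 15160 genes (10.5%), 979 lying more to the heart side in newborns (6.46%) and 607 more to the cortex side (4%). With heart control 3 as the sole newborn heart it did so for 610 genes, a fit with fewer libraries. Leaving out 1 cortex control also lowered the number by over 1.5 times, to 931 without adult cortex 1, 956 without adult cortex 3, 957 without newborn cortex 2 and 1040 without newborn cortex 1. With library totals alone 84.8% of the calls lay more to the heart side in newborns in place of 61.7%, and the median of all terms moved to 0.49. The term given is the newborn difference minus the adult one, and CPM values in this paragraph and the next are scaled over the 12 libraries. Tnni1 had the largest term of the genes named, 13.25 ± 0.64 (adjusted p 2e-08). Its newborn hearts had 2349.7, 2122 and 2884 CPM and its adult hearts 0.603, 1.34 and 0.232 CPM, below the 3.15, 4.04 and 4.39 CPM of the adult cortices. Tnni3, the cardiac form, did not pass the threshold (-0.27 ± 0.69, adjusted p 0.85), and adult hearts had 15887, 5537 and 8097 CPM. Myh7 had 886, 2836 and 2313 CPM in newborn hearts and 38.3, 23.9 and 21.6 CPM in adult hearts, a term of 8.18 ± 0.78 (adjusted p 4.7e-05), whereas Myh6 did not pass (-0.78 ± 0.82, adjusted p 0.6). Dlk1 and Mest, imprinted fetal genes, had terms of 9.71 ± 1.59 and 5.24 ± 0.79 (adjusted p 0.0015 and 0.0009), and Dlk1 was at or below 0.603 CPM in adult hearts and uneven in adult cortex, at 3.34, 37.2 and 0.517 CPM, so the size of its term rests on few counts. Actn1, the non-muscle actinin, and Cox8a, the common oxidase subunit, were higher in heart in newborns and lower in heart than in cortex in adults, with terms of 3.43 ± 0.37 and 2.79 ± 0.40.

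Fuel genes had no common direction. Of 24 glycolysis genes, 8 had positive and 3 negative terms past the threshold, beside 6.46% and 4% of all genes. Of 33 genes of fatty acid uptake and oxidation, 0 had a positive and 3 a negative term. Slc2a4 had 91.7, 101 and 83.3 CPM in newborn hearts and 925, 550.0 and 328 CPM in adult hearts, a term of -4.06 ± 0.69 (adjusted p 0.002). Bdh1 had 5.03, 4.1 and 14.2 CPM in newborn hearts and 119.7, 64.6 and 57.3 CPM in adult hearts, where they overlapped the 53.7, 65.4 and 62.9 CPM of adult cortex, and its term was -4.32 ± 0.58 (adjusted p 0.00039). The citric acid cycle list had 0 of 21 genes past the threshold in either direction. Several genes of the brain had positive terms, with an adult difference further to the cortex side. Camk2a had 67.4, 87.9 and 84.4 CPM in newborn and 1306, 2416 and 1542 CPM in adult cortex (4.26 ± 0.65, adjusted p 0.00097). Ckb, Aldoc and Slc2a3 had terms of 3.25 ± 0.45, 4.49 ± 0.52 and 3.46 ± 0.54. Mapt had a negative term, with 3487, 3016 and 2693 CPM in newborn cortex and 609, 569.5 and 723 CPM in adult cortex while the hearts stood at 6.62, 8.02 and 2.3 and 276, 127 and 169.7 CPM, a term of -7.35 ± 0.60 (adjusted p 1.8e-05). Oligodendrocyte lineage genes had 6 of 17 with positive terms past the threshold, and sarcomere genes 7 with positive and 2 with negative terms of 40.

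**Figure D5:**
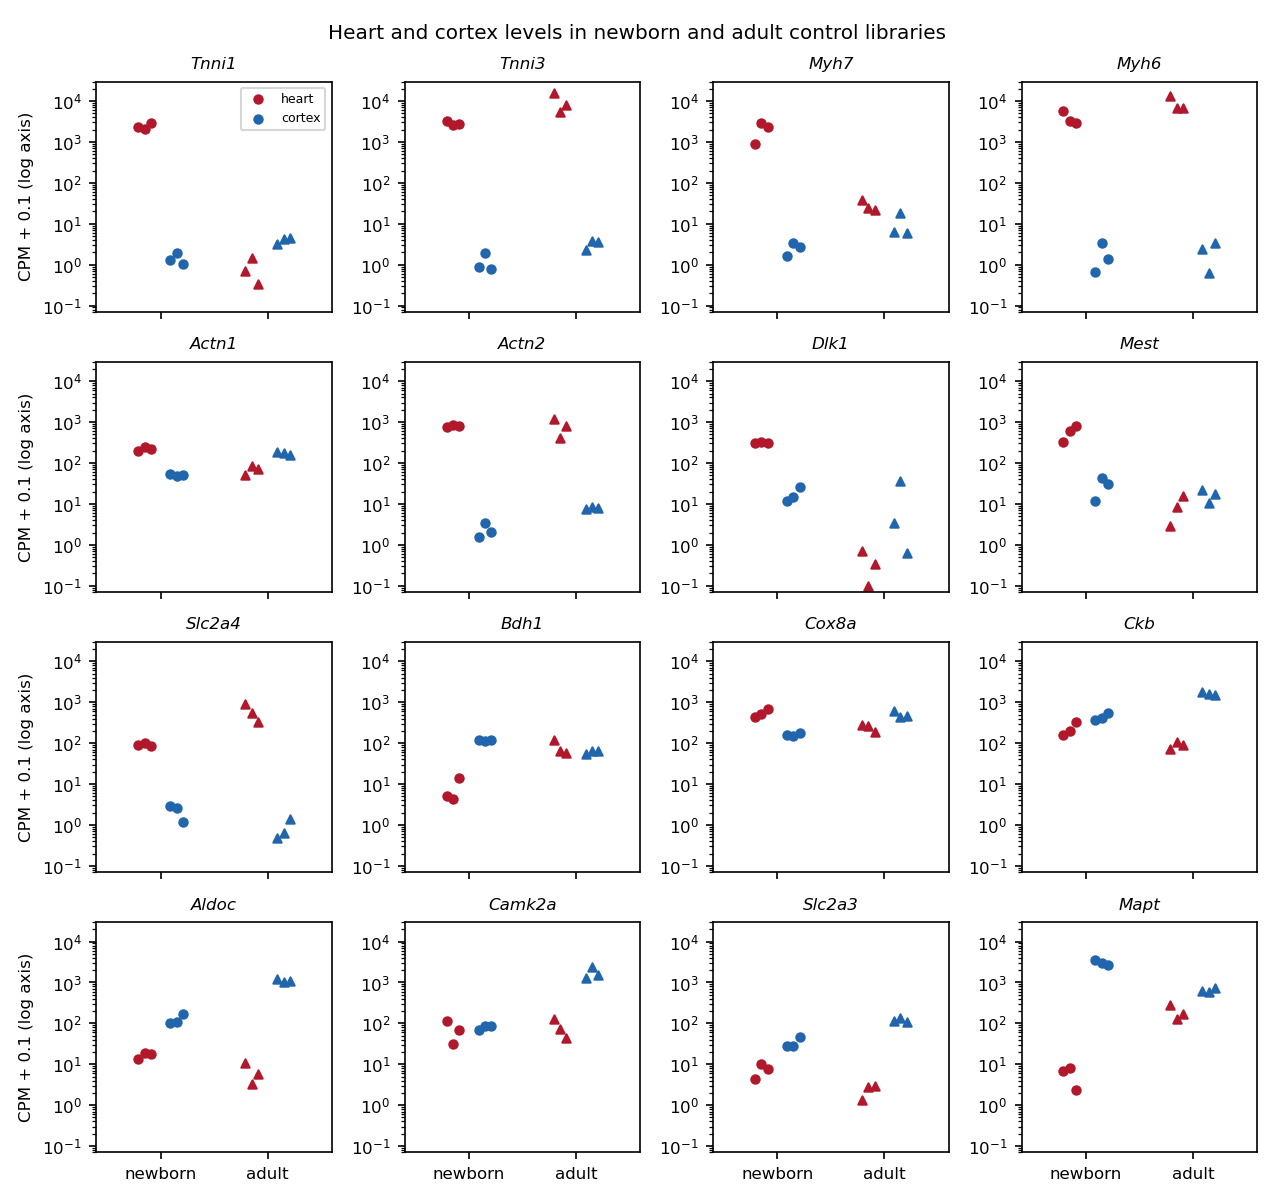
CPM plus 0.1 (log axis) of 16 genes in each newborn (circles) and adult (triangles) control library, red for heart and blue for cortex. Tnni1 and Myh7 are high in newborn hearts and low in adult hearts while Tnni3 and Myh6 stay high, and Camk2a, Ckb and Aldoc are higher in adult than in newborn cortex.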

How the data were processed

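The authors deposited 1 table of raw counts per library, with Ensembl gene identifiers, made from QuantSeq 3′ reads aligned with STAR to GRCm38, per the submitters' processing notes. No source used here names the version of STAR, the read counter or the annotation release. Of 55416 identifiers, 52083 were matched to a symbol, and the others held 6.38 to 9.65% of the counts of the 6 newborn control libraries. One count equals 0.140 to 0.173 CPM there.

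Genes were filtered with filterByExpr, scaled with TMM factors and tested with edgeR 4.0.16 (R 4.3.3) by the quasi-likelihood F test, without a replicate block, at a Benjamini-Hochberg adjusted p under 0.05. The same test was run on the newborn Y334C libraries, and as a tissue by age interaction over the 12 control libraries. Standard errors were derived from each log2 fold change and its F value (the change over the root of F). DESeq2 1.42.0 and limma 3.58.1 were alternatives. Counts were simulated for 14020 genes of the newborn comparison, 100 of them changed by a log2 of 1 and 100 by a log2 of 3. Of these edgeR recovered 18% and 94%, and it called 6 unchanged genes.

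Lists held 1120 genes, of which 986 were tested. The members and lists were chosen with earlier results of these data known. Genes named are the 10 largest changes each way with at least 10 CPM in every library of the higher tissue, up to 4 members per list and direction, members called against most of their list, both genes of each pair, and Sepsecs, Gpx4 and the selenocysteine genes past the threshold. Genes known only by a clone name, sex-linked genes and genes of neighbouring tissues were passed over among the 10. Other genes named were chosen after their values were seen. Lower bounds against a tissue without a count use 3 counts over its 3 libraries, and the exact intervals of count ratios cover counting error only. The interval of Sepsecs rests on edgeR's standard error and so covers the spread between libraries. Some genes are counted in the lists but not reported here by name.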

Additional observations from a re-analysis of the deposited data

Results flagged for a closer look

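The difference between heart and cortex differed between newborn and adult controls for 1586 genes by the tissue by age term of edgeR (adjusted p under 0.05). The newborn and adult controls also differ in their genotype label and in the kit of 1 heart library, so age cannot be told apart from these. Among the genes given with this term, it was positive, with the newborn difference more to the heart side, for Tnni1 at 13.25, Dlk1 at 9.71, Myh7 at 8.18, Mest at 5.24, Aldoc at 4.49, Camk2a at 4.26, Slc2a3 at 3.46, Actn1 at 3.43, Ckb at 3.25 and Cox8a at 2.79 on the log2 scale. It was negative for Mapt at -7.35, Bdh1 at -4.32 and Slc2a4 at -4.06. Each of these 13 terms stayed past the threshold without each library in turn and with heart control 3 as the sole newborn heart.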

How the results depend on the processing

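Requiring a fold of at least 2 (glmTreat) left 2548 genes higher in heart, 2546 higher in cortex, 5694 differing in the Y334C libraries and 586 with a tissue by age term, as fewer genes pass a stricter test. The age count was also 2484 with limma-voom, 596 at an adjusted p under 0.01, and 610 with heart control 3 alone; for limma-voom the cause was not tested. Leaving out 1 library in turn gave 3620 to 3979 genes higher in heart, 3627 to 4314 higher in cortex, 8375 to 9631 in the Y334C libraries and 931 to 1689 for age. None of the 8186 genes was called in the other direction in any setting run. Of 55 list medians, 6 changed sign in some setting. Those of selenoproteins (0.30) and selenocysteine synthesis (0.14) came to -0.10 and -0.27 with library totals alone, that of cartilage (0.50) to -0.63 with heart control 3 alone, and that of thymus (-1.79) to 2.04 with no filter on low counts. That of lung epithelium (-0.34) came to between 3.08 and 5.22 in 8 settings, and that of Schwann cells (0.52) to between -2.29 and -0.09 in 7. With heart control 3 alone the difference was -0.49 for Col2a1, -1.72 for Hba-a2, -1.19 for Wfdc2 and, by a fit with no count in that heart, -6.56 for Sec14l3, and with cortex control 1 alone 0.20 for Nr2f2. Library totals alone, heart control 3 alone for age, and cortex control 1 alone were chosen after seeing the data. With the replicate block, 3747 genes were higher in heart, 3808 higher in cortex, 8633 differed in the Y334C libraries and 1289 by age. Same-numbered newborn control hearts and cortices correlated at -0.181, -0.0277 and -0.134, so the numbers were not taken to pair the samples. Each of these 6 libraries correlated best with one of another number, heart 1 with cortex 3 (0.262), heart 2 with cortex 1 (0.189) and heart 3 with cortex 2 (0.152). Heart 2 and cortex 1 were also the ones with Xist, at 290.5 and 475 CPM against at most 1.18 CPM in the others. Ddx3y, a second sex-linked gene, had 27.7 and 0.173 CPM in hearts 1 and 2 and 0.14 and 88.4 CPM in cortices 1 and 2. Hearts 1 and 2 were therefore of other mice than the cortices of the same number. The labels tie no heart to a cortex. For these numbers the block joined libraries of different mice, and its counts do not describe a paired comparison. A simulated log2 change of 1 was recovered for 18% of genes. Far fewer genes changed in the simulation than the 8186 called here, which makes the adjusted p harder to pass. That share therefore does not give the recovery in these data.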
